A study of Mus musculus with 23 samples.

Results

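Gene expression after treatment with dioctyl succinate (DOS) was compared with the DMSO vehicle in TM4 cells, a line of immortalized mouse Sertoli cells. The comparison used 7 of the 23 arrays of the series, chosen by the agent in the sample labels: DOS replicates 1, 3 and 4 and DMSO replicates 1 to 4. DOS was given at 100 μM for 48 hr, every culture including the controls received 1% DMSO, and DOS replicate 2 had been excluded by the authors for high background. DOS was one of the plasticizers proposed as a replacement for phthalates, and the comparison asks which transcripts differ from vehicle at a dose shared with the other compounds. TM4 is a single line, so the cultures stand for 1 cell type. The replicates were described as biological, with no statement of how cultures were kept apart, and p-values here measure only the spread between these samples.

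Sertoli cells nourish the germ cells, seal the blood-testis barrier, supply lactate and convert vitamin A to retinoic acid. Phthalate monoesters are known to act on PPARs, lipid-activated nuclear receptors whose targets, such as Pdk4 and Angptl4, shift cells towards the use of fatty acids. Enzymes of cholesterol synthesis are induced together by the factor SREBF2 when sterols in the endoplasmic reticulum run low, and contractile genes are induced by SRF and the YAP co-activators when actin filaments assemble.

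Levels are given as the log2 of the spot intensity minus the 75th percentile of that array, so that a level of 0 is the 75th percentile. Probes entered the test if all arrays of DMSO or all arrays of DOS had them well above background and not under the 20th percentile. With limma and Benjamini-Hochberg adjustment over 24209 probes of 11936 genes, 0 genes (0%) passed both thresholds for a call, an adjusted p under 0.05 and a change of more than 1.5-fold. The smallest adjusted p was 0.339. The unadjusted p was below 0.05 for 1725 probes (7.13%), against 1210 expected at that threshold, with 908 higher and 817 lower with DOS. With the replicate number as a block the count at an unadjusted p below 0.05 was 3314 probes, again with 0 genes called. Without DOS replicate 3, 8 genes were called, and without any other single array 0.

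How large a difference the 7 arrays would still allow was read from the 95% intervals. The interval of 17430 probes (72%) lay within a 1.5-fold change in either direction, and that of 22684 probes (93.7%) within 2-fold. The median half-width was 0.32 on the log2 scale, which is 1.25-fold. For 20 probes the interval lay wholly beyond a 1.5-fold change, 5 of them higher and 15 lower with DOS. When each gene was represented by its brightest probe, 11935 genes gave a median difference of −0.01, and 47.8% of them lay above 0. Of these genes, 6.35% had an unadjusted p below 0.05 (3.44% higher and 2.92% lower with DOS), and these shares are the background against which the counts in gene lists are given.

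**Figure D1:**
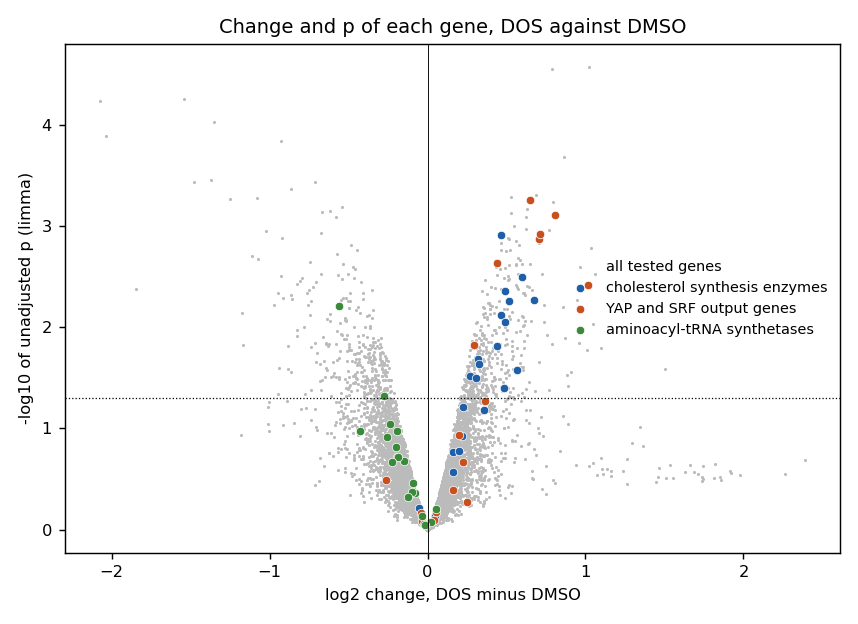
Each grey point is a tested gene, with the log2 change (DOS minus DMSO) on the x axis and −log10 of the unadjusted limma p on the y axis; the dotted line is the 0.05 threshold. Of the 22 cholesterol synthesis enzymes (blue) 21 lay to the right of 0 and 14 of these above the line, 7 of the 18 YAP and SRF output genes (orange) lay above the line on the right, and 18 of the 20 aminoacyl-tRNA synthetases (green) lay to the left of 0.

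Pdk4 and Aldh1a1 had the lowest p-values of all named genes, and both were higher with DOS. Pdk4, the kinase that shuts pyruvate dehydrogenase and a classical PPAR target, was at −1.47, −1.47, −1.54 and −1.30 on the DMSO arrays and at −0.26, −0.65 and −0.35 on the DOS arrays. Every DOS array was above every DMSO array, but a low p and groups without overlap were part of the rule that named Pdk4 and Aldh1a1. The difference was 1.02 ± 0.12 (SE) log2 units, a 2.03-fold higher level with a 95% interval of 0.74 to 1.31 (limma, unadjusted p = 2.69e-05, adjusted p = 0.339). Without DOS replicate 3 it was 1.14 and passed, with an adjusted p of 0.0379 in limma. Aldh1a1, which oxidizes retinal to retinoic acid, was at −1.80, −1.64, −1.66 and −1.77 with DMSO and at −0.998, −0.90 and −0.89 with DOS. The groups did not overlap, and the difference was 0.79 ± 0.10 (SE) log2 units (adjusted p = 0.339 in limma). Its sign was the same in all 21 alternative settings and arrays left out, where it lay between 0.52 and 0.84. Some of these settings, such as a variance trend or another filter, cannot move the estimate of a gene.

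Other genes that lay higher with DOS on every array included regulators, matrix proteins and enzymes. Mycn, a MYC family transcription factor, was at −2.18, −2.20, −2.09 and −2.59 with DMSO and at −1.32, −1.38 and −1.52 with DOS. The difference was 0.86 ± 0.14, and it lay between 0.46 and 1.02 over the alternative settings and arrays left out. Ltbp2, a matrix protein of the microfibrils, was at −0.19, −0.72, −0.20 and −0.50 with DMSO and at 0.49, 0.36 and 0.34 with DOS, a difference of 0.80 ± 0.15. Groups without overlap were part of the rule by which these genes were named, and 4.33% of all genes lay higher on every DOS array. Each adjusted p was 0.359 in limma. Mgp, matrix Gla protein, an inhibitor of calcification, had a larger difference, 1.101 ± 0.37, and wider groups. It was at −0.70, 0.49, 0.42 and 0.43 with DMSO and at 0.54, 1.46 and 1.79 with DOS, so that DOS replicate 1 lay just above 3 of the DMSO arrays and DMSO replicate 1 well below all others. Cbr2, a carbonyl reductase, differed by 1.06, Ifi27l2a by 0.77 and Prrx2, a mesenchymal homeobox factor, by 0.75 log2 units. Over the same settings Prrx2 ranged from 0.50 to 1.01.

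Car6 and Saa3 lay furthest below vehicle among the genes that were well above background on all 7 arrays and whose groups did not overlap. Car6, a secreted carbonic anhydrase, was at 2.24, 1.66, 1.91 and 2.34 with DMSO and at −0.76, 0.19 and 0.56 with DOS. It was thus 4.10-fold lower, with a log2 difference of −2.04 ± 0.31 (SE) and an interval of −2.73 to −1.34. Saa3, the acute phase serum amyloid A protein of inflamed cells, was at −0.52, −0.34, −0.61 and −0.03 with DMSO and at −2.25, −2.01 and −1.49 with DOS. It was 2.92-fold lower, with a log2 difference of −1.54 ± 0.21 (SE). Both had an adjusted p of 0.344 in limma, and 3.8% of all genes lay lower on every DOS array. After normexp background correction these were the 2 genes called, Car6 at −1.77 with an adjusted p of 0.0106 and Saa3 at −0.93 with an adjusted p of 0.0257.

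Other genes lower on every DOS array included kinases and enzymes of lipid handling. Soat2, which esterifies cholesterol for storage, was at −0.29, −1.21, −1.24 and −0.67 with DMSO and at −1.89, −2.28 and −1.72 with DOS, a difference of −1.11 ± 0.25. Aurkb, the mitotic Aurora B kinase, differed by −0.92, and Cxadr, a junction protein that also serves viruses as a receptor, by −0.92. Dyrk4, a protein kinase, differed by −1.35, Akr1b7, an aldose reductase family member, by −1.17, Gm5039 by −0.97, Alox12b, a skin lipoxygenase, by −0.93 and Glrp1 by −0.83. Each of these 8 genes was well above background on all 7 arrays. Mamdc2 differed by −2.07 but was above background on 2 of the 3 DOS arrays, while Oxt, oxytocin, with −1.37, and Gm5935, with −1.48, were above it on 1 of 3. After normexp correction all but that of Cxadr were smaller by more than 1.5 times. They were then −0.62 for Soat2, −0.58 for Aurkb, −0.52 for Dyrk4, −0.44 for Akr1b7, −0.41 for Gm5039, −0.44 for Alox12b, −0.20 for Glrp1, −0.81 for Mamdc2, −0.09 for Oxt and −0.14 for Gm5935. Without DOS replicate 1 the difference of Akr1b7 was −0.69.

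A few genes were well above background in one group and on no array of the other, and for these only a bound is given, taken from the lowest signal above background on each array. With DOS, Cd274, the immune checkpoint ligand PD-L1, was at least 1.61-fold lower, Gm12359 at least 1.46-fold, Fzd4, a Wnt receptor, at least 1.43-fold and Kcnn3, a calcium-activated potassium channel, at least 1.42-fold lower. Krtap1-5 was at least 2.01-fold higher. Their adjusted p-values in limma lay between 0.372 and 0.704, and the groups overlapped for Fzd4 and Kcnn3. The bounds hold for the processed signal alone. After normexp correction the differences shrank to −0.09 for Cd274, −0.03 for Fzd4 and 0.33 for Krtap1-5, and those of Gm12359 and Kcnn3 were 0.02 and 0.03, and thus of opposite sign.

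**Figure D2:**
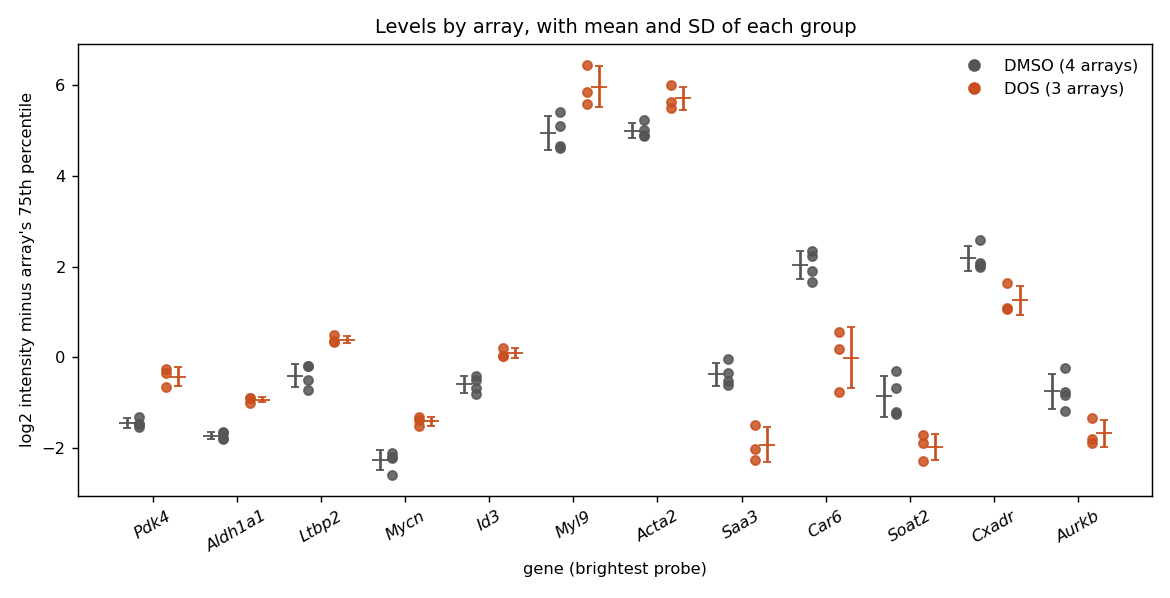
Levels of 12 genes on the 4 DMSO arrays (grey) and 3 DOS arrays (orange), as log2 intensity minus the 75th percentile of the array, with the mean and SD of each group beside the points. The groups do not overlap for any of the 12, and non-overlap was part of the rule that named all but Id3 and Acta2. Pdk4 and Aldh1a1 have the narrowest groups relative to the gap, and Car6 the widest gap.

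The enzymes of cholesterol synthesis lay higher with DOS nearly throughout. All 22 enzymes were tested and 0 were called, yet 21 lay above 0, and the median difference was 0.34 log2 units (1.27-fold) against −0.01 over all genes. At an unadjusted p below 0.05, 14 of 22 (63.6%) were higher and 0 lower, where 3.44% of all genes were higher. On 13 of 22 (59.1%) every DOS array lay above every DMSO array, as for 4.33% of all genes, while for 3.8% every DOS array lay below. The median over the enzymes, each set against its DMSO mean, was 0.08, 0.03, −0.04 and −0.06 on the DMSO arrays and 0.49, 0.23 and 0.25 on the DOS arrays. DOS replicate 1 was thus furthest from vehicle, and the groups did not overlap. Within slide 1 the median difference was 0.48 and within slide 3 it was 0.34, the only slides that held both groups. Over 21 alternative settings and arrays left out the median lay between 0.24, without DOS replicate 1, and 0.40, without DOS replicate 4. Between 20 and 22 enzymes lay above 0. The other filters, a variance trend and all groups in 1 fit left it at 0.339, since they do not alter the estimate of an enzyme. The replicate block gave 0.331, the same as leaving out DMSO replicate 2. The number at an unadjusted p below 0.05 moved further, from 7 without DOS replicate 1 to 16 with a variance trend, and it was 9 without DMSO replicate 3 or 4 or without the filter on dim probes.

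The first steps make the mevalonate from which all sterols are built. Acat2, which joins the first acetyl units, was at 0.29, 0.59, 0.33 and 0.47 with DMSO and at 1.33, 0.83 and 0.90 with DOS, a difference of 0.60 ± 0.15 (SE). Hmgcs1, the next enzyme, was at 4.97, 5.28, 5.18 and 4.92 with DMSO and at 5.70, 5.36 and 5.59 with DOS, a difference of 0.46 ± 0.13. Both genes had DOS arrays wholly above the DMSO arrays, by a narrow margin for Hmgcs1. Of the enzymes that turn mevalonate into the isoprene unit, Mvk differed by 0.27, Pmvk by 0.57, Mvd by 0.52 and Idi1 by 0.48. Mvd was at 3.01, 3.18, 2.95 and 3.09 with DMSO and at 3.86, 3.51 and 3.35 with DOS, without overlap, whereas Pmvk and Idi1 overlapped because DMSO replicate 1 lay above DOS replicate 3. Fdps and Fdft1, which condense the units to farnesyl and on to squalene, differed by 0.31 and 0.32. Ggps1, which draws the same units off towards protein prenylation, was the member below 0, with −0.05 and an interval within 1.5-fold.

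The later enzymes close and trim the sterol rings. Sqle, squalene epoxidase, differed by 0.16 (unadjusted p = 0.172 in limma) and Lss, which closes the rings, by 0.35 (unadjusted p = 0.065). Tm7sf2, a sterol reductase, had the largest difference of the list, 0.68 ± 0.18. It was at 2.91, 2.79, 2.79 and 2.44 with DMSO and at 3.74, 3.42 and 3.06 with DOS. Lbr, which can catalyse the same reduction, differed by 0.05, with one of its probes below 0. Nsdhl and Hsd17b7, which remove the extra methyl groups, differed by 0.49 and 0.44, and Cyp51 by 0.32. Ebp, Msmo1, Sc5d and Dhcr7 lay between 0.16 and 0.22, each with an unadjusted p above 0.05.

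The genes that sense, take up and export sterols lay closer to 0. Of 15 listed, 10 were tested and 7 lay above 0, with a median of 0.03 and 0 at an unadjusted p below 0.05. Srebf2 itself differed by −0.09. Insig1, which holds SREBF2 in the endoplasmic reticulum and is one of its targets, differed by 0.18 (unadjusted p = 0.307 in limma). Of 15 tested genes of fatty acid synthesis and desaturation, 10 lay above 0, with a median of 0.12. At an unadjusted p below 0.05, 2 (13.3%) were higher and 1 (6.67%) lower, where 3.44% and 2.92% of all genes were. Scd2, a desaturase, was at 7.50, 7.37, 7.37 and 7.48 with DMSO and at 7.78, 7.88 and 7.70 with DOS, a difference of 0.35 ± 0.10. Elovl6, an elongase, differed by 0.43, and Fads3 by −0.26. The median of this list was 0.03 without DOS replicate 1 and 0.07 without DMSO replicate 2.

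The promoters of 4 enzymes whose groups did not overlap are shown, 3 with a known motif and Acat2 without one. They were taken from RefSeq (build GRCm38.p6) as the 250 bases before the start, written 5′ to 3′ in the direction of the gene, and no array position was used for them. Capitals mark the CCAAT box (CCAAT), which the factor NF-Y binds beside SREBF2, and the sterol regulatory element (TCACNCCAC), both searched on either strand, so that ATTGG is a CCAAT box on the opposite one. In Hmgcs1 the run TCACCCCAC is the sterol element, the other capitals are CCAAT boxes, and they do not overlap. Acat2 has no capitals.
Hmgcs1 (chr13:119690101-119690350, plus strand): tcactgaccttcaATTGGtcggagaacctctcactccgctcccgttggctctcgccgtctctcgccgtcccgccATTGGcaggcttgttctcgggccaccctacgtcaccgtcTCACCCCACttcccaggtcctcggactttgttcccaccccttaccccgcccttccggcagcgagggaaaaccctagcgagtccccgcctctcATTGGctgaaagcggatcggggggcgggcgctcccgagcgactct
Mvd (chr8:122443423-122443672, minus strand): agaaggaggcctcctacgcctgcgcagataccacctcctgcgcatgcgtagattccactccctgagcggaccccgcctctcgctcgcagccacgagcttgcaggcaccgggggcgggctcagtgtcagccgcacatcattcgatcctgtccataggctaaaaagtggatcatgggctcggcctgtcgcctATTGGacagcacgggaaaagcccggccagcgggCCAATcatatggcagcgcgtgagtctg
Tm7sf2 (chr19:6067851-6068100, minus strand): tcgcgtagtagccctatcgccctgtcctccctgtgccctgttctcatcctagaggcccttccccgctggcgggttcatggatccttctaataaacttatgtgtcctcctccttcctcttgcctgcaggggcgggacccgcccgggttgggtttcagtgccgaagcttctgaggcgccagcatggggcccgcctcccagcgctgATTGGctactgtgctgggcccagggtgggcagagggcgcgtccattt
Acat2 (chr17:12960726-12960975, minus strand): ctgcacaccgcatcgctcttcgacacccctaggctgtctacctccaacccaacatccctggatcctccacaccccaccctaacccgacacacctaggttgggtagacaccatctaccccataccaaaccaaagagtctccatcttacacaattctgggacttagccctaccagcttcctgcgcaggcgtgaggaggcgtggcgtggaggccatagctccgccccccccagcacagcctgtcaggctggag

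The table held promoters for 17 of the 22 enzymes, in 20 windows, and not for 5 others, among them Fdps, Fdft1 and Sqle. A CCAAT box lay in 16 of the 20 windows (80%) and in 33.8% of all 32851 windows of the same length. The sterol element lay in 1 of the 20 (5%), that of Hmgcs1, and in 1.05% of all windows. Acat2, whose difference was the second of the list after Tm7sf2, held neither. A match here describes the sequence and not a bound site.

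Genes of actin-based contraction made up the members of the YAP and SRF list that lay higher with DOS at an unadjusted p below 0.05. Of 18 YAP and SRF output genes, all tested and 0 called, 14 lay above 0, with a median of 0.24. At that threshold, 7 of 18 (38.9%) were higher and 0 lower, where 3.44% of all genes were higher. For the same number every DOS array lay above every DMSO array, as for 4.33% of all genes. These 7 were Myl9, Cnn1, Acta2, Tagln, Actg2, Tpm1 and Cnn2, all of them proteins of the contractile filament or its binding partners. Acta2, smooth muscle alpha-actin, was at 4.89, 5.0, 5.22 and 4.87 with DMSO and at 5.50, 5.99 and 5.63 with DOS, a difference of 0.71 ± 0.15 (SE). Actg2, the gamma form, was at 1.66, 1.56, 1.73 and 1.38 with DMSO and at 2.25, 2.34 and 2.10 with DOS, a difference of 0.65 ± 0.12. Tagln, transgelin, was at 6.77, 6.86, 6.76 and 6.42 with DMSO and at 7.67, 7.32 and 7.24 with DOS, a difference of 0.71 ± 0.15. No DMSO array reached the lowest DOS array in any of the 3.

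The regulatory light chain and the calponins were also higher on every DOS array. Myl9, the myosin light chain that triggers contraction, was at 4.602, 5.10, 5.41 and 4.67 with DMSO and at 5.57, 6.45 and 5.86 with DOS, a difference of 1.02 ± 0.26. Cnn1, calponin, was at 0.37, 0.18, 0.49 and −0.08 with DMSO and at 1.22, 1.05 and 0.87 with DOS, a difference of 0.81 ± 0.16. Tpm1, a tropomyosin, differed by 0.44 on its brightest probe and by 0.03 to 0.55 over its 5 tested probes, and Cnn2 by 0.30. The usual readouts of YAP were not among them. Ccn1 differed by 0.36 (unadjusted p = 0.0541 in limma), Ccn2 by 0.25 (unadjusted p = 0.532) and Ankrd1 by −0.26 (unadjusted p = 0.323), and Srf itself by −0.04. The list's median was 0.16 within slide 1, with 10 of 18 above 0, and 0.22 within slide 3, with 13 of 18, and over all settings it lay between 0.19 and 0.31.

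Of 6 markers of peritubular myoid cells, the smooth-muscle-like cells around the tubules, 3 (Acta2, Cnn1 and Tagln) are the same contractile genes. The summed level of the list was 6.95 to 7.29 on the DMSO arrays and 7.72 to 8.03 on the DOS arrays. Smtn, smoothelin, was tested and differed by 0.06, Myh11, the smooth muscle myosin heavy chain that defines these cells, did not stand well above background anywhere, and Des was above it on 1 DMSO array. In RNA from a whole culture, more or fewer cells of a type cannot be told apart from more or less RNA per cell.

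The promoters of Myl9 and Cnn2, which held the CArG box that SRF binds, are shown with the box in capitals (RefSeq, build GRCm38.p6, the 250 bases before the start). The box was found in 4 of 16 windows of the list (25%), those of Cnn2, Myl9, Vcl and Srf, and in 1.47% of all windows. Promoters were given for 15 of the 18 genes and not for Ccn2, Tagln and Actg2.
Myl9 (chr2:156775214-156775463, plus strand): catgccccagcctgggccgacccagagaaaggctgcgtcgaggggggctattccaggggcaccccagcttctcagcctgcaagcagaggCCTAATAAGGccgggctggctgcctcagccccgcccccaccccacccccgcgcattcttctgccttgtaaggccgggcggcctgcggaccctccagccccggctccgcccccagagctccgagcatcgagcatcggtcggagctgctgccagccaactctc
Cnn2 (chr10:79988350-79988599, plus strand): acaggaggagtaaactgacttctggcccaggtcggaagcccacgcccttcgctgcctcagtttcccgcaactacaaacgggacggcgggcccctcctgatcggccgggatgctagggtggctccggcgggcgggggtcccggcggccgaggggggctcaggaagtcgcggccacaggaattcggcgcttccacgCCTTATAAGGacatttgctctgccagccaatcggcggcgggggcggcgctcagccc

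Of these box-holding genes, Vcl differed by 0.23 (unadjusted p = 0.216 in limma) and Srf by −0.04, so the box was found both in genes that lay higher with DOS and in genes that did not.

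**Figure D3:**
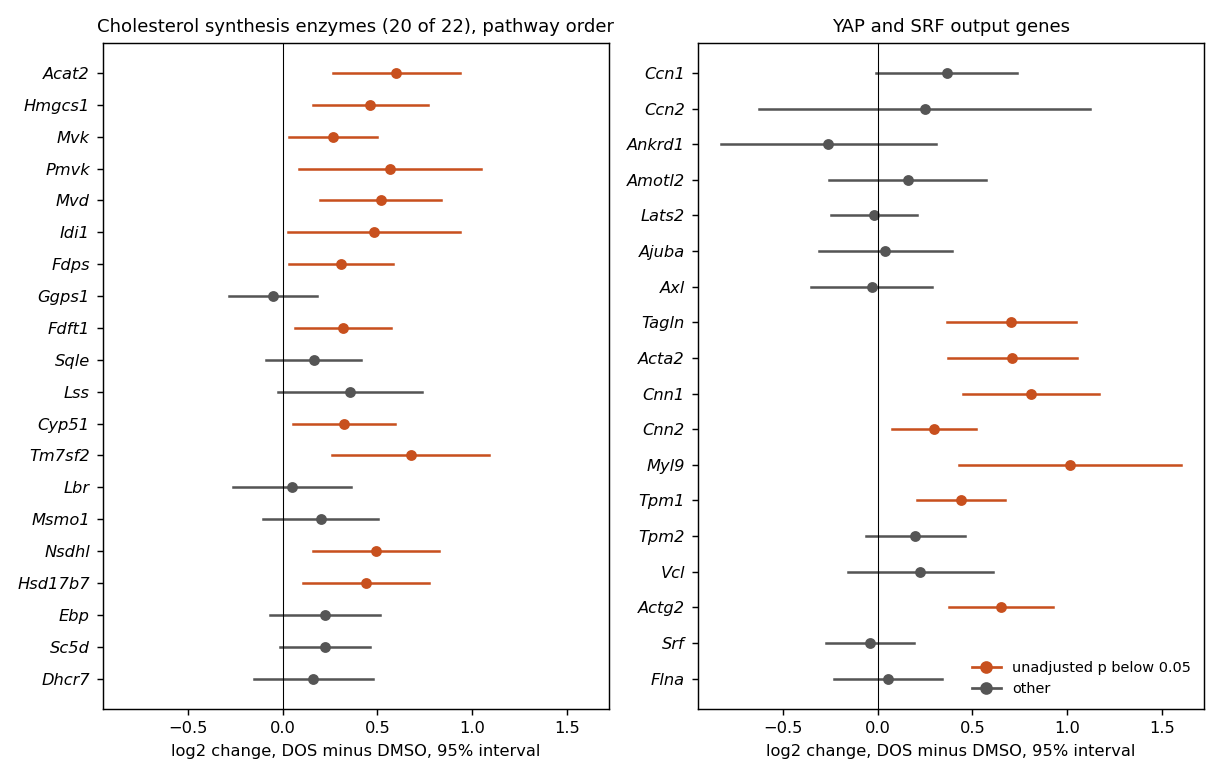
Log2 change (DOS minus DMSO) of 20 of the 22 cholesterol synthesis enzymes, in pathway order, and of each YAP and SRF output gene, with its 95% interval; orange marks an unadjusted p below 0.05. Nearly all enzymes sit to the right of 0 with differences up to 0.68. In the right panel the 7 contractile genes are orange, and Lats2, Axl, Srf and Ankrd1 lie at or below 0. The other genes lie above 0 without being orange, among them Ccn1, whose difference is larger than that of Cnn2.

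TGF-beta signals and matrix genes accompany contractile genes in many mesenchymal cells, and their lists were read beside them. Of 17 tested genes of the TGF-beta, activin and inhibin list, 14 lay above 0, with a median of 0.19. At an unadjusted p below 0.05, 3 (17.6%) were higher, where 3.44% of all genes were. Id3, an inhibitor of helix-loop-helix factors that TGF-beta family signals induce, was at −0.80, −0.49, −0.40 and −0.67 with DMSO and at 0.04, 0.22 and 0.03 with DOS, a difference of 0.69 ± 0.13 without overlap. The ligands Tgfb3 and Tgfb2 differed by 0.37 and 0.23, Inha, the inhibin alpha subunit, by 0.36 (unadjusted p = 0.0649 in limma), and Smad7, a feedback inhibitor, by −0.16. Of 22 tested matrix genes, 18 lay above 0, with a median of 0.17. Mgp and Sparc, a collagen-binding protein at 0.29 on its brightest probe, were the 2 at an unadjusted p below 0.05. This is 9.09% of the list, where 3.44% of all genes were higher. The other tested probe of Sparc lay on the opposite side, at −0.50. With the replicate block 7 matrix genes were higher, where 6.46% of all genes were. Col1a1, Col1a2 and Fn1 lay between 0.21 and 0.24, and Thbs1 at 0.72 with overlapping groups (unadjusted p = 0.0775 in limma). The matrix median rested on single arrays, being 0.04 without DOS replicate 3, 0.06 without DMSO replicate 1 and 0.36 without DOS replicate 1.

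PPAR target genes as a list lay near 0, with Pdk4 and then Angptl4 the furthest above it. Of 37 listed, 27 were tested and 17 lay above 0, with a median of 0.06. At an unadjusted p below 0.05, 3 (11.1%) were higher and 2 (7.41%) lower, where 3.44% and 2.92% of all genes were. Angptl4, a secreted inhibitor of lipoprotein lipase, was at 3.21, 4.30, 4.25 and 3.71 with DMSO and at 4.21, 4.91 and 4.51 with DOS. The groups overlapped, and the difference of 0.68 ± 0.28 had a wide interval of 0.03 to 1.32. Within slide 1 it was 1.00, and likewise 1.00 within slide 3. Ucp2, an uncoupling protein, was at 1.31, 1.26, 1.20 and 1.43 with DMSO and at 1.88, 1.77 and 1.52 with DOS, a difference of 0.42 ± 0.12. Enzymes of fatty acid oxidation lay on either side of 0. Cpt1a, which admits fatty acids to mitochondria, differed by 0.26 (unadjusted p = 0.121 in limma), Acadl, long-chain acyl-CoA dehydrogenase, by −0.35 and Acsl1, which activates fatty acids, by −0.38, both of the latter without overlap of the groups. Cd36 and Fabp4 were at background on every array. The list's median was 0.02 without DMSO replicate 1 and 0.04 without DOS replicate 3.

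Retinoid genes had few members above background. Of 21 listed, 10 were tested, of which 8 lay above 0, with a median of 0.20. At an unadjusted p below 0.05, 3 (30%) were higher, where 3.44% of all genes were. Among the 3 were Aldh1a1 and Tgm2, transglutaminase, a target of retinoic acid. Tgm2 differed by 0.37, with DOS replicate 4 inside the DMSO range. Dhrs3, which turns retinal back to retinol and is itself induced by retinoic acid, differed by 0.34 (unadjusted p = 0.2 in limma), and Rara and Rarg by −0.03 and 0.05. Cyp26a1, Rarb and Stra6, retinoic acid targets in other cells, were not tested. The median was 0.12 without DOS replicate 3.

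Esterases cleave esters such as DOS, and succinate is an intermediate of the citric acid cycle, so both lists were read. Of 33 esterases and lipases, 10 were tested, none of them a carboxylesterase of the Ces families. Of these, 3 lay above 0, with a median of −0.05, and Abhd5, a lipase co-activator, differed by −0.26 at an unadjusted p of 0.0274 in limma. Of 27 tested genes of the citric acid cycle and succinate handling, 13 lay above 0, with a median of −0.02 and 0 at an unadjusted p below 0.05. The interval of each of the 27 lay within a 1.5-fold change. The subunits of succinate dehydrogenase, Sdha, Sdhb, Sdhc and Sdhd, differed by −0.12, 0.04, −0.14 and 0.06, and Slc25a10, the dicarboxylate carrier, by 0.19. The median of this list was 0.02 without DMSO replicate 1 or 4, and that of the esterases −0.09 without DMSO replicate 1 and −0.02 without DMSO replicate 2.

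Of the detoxification lists, the glutathione transferases lay mostly above 0 and the NRF2 targets near it. The NRF2 list held no glutathione transferase, whereas the NRF2 pathway of the paper includes several, so the contrast depends on how the lists were drawn. Of 17 tested glutathione transferases, 16 lay above 0, with a median of 0.24. At an unadjusted p below 0.05, 3 (Gsto2, Mgst2 and Gstz1, 17.6%) were higher, where 3.44% of all genes were. Gstz1, of the zeta class, was at 1.81, 1.95, 1.92 and 1.84 with DMSO and at 2.19, 2.10 and 2.10 with DOS, a difference of 0.25 ± 0.09, and Gsto2, of the omega class, differed by 0.31 ± 0.10. These are shifts of under 1.5-fold, and the interval of 13 of the 17 lay within that limit. Near-identical members such as Gstm1, Gstm2 and Gstp2 may share probe signal. The median was 0.14 without DMSO replicate 1 and 0.13 without the filter on dim probes. The number at an unadjusted p below 0.05 was 0 without DOS replicate 3, 0 without both DOS replicate 3 and DMSO replicate 4, and 1 without DMSO replicate 1 or DOS replicate 1. Of 26 NRF2 targets, 11 lay above 0, with a median of −0.03. At an unadjusted p below 0.05, 2 (7.69%) were lower, where 2.92% of all genes were. The median lay between −0.05 and 0.01 with any single array left out, above 0 without DMSO replicate 1. Hmox1, haem oxygenase, differed by −0.11, with an interval within 1.5-fold, and Nqo1 by 0.24. Gclc, the limiting subunit of glutathione synthesis, differed by −0.36. Abcc4, an exporter of conjugates and prostaglandins, was at 1.72, 1.38, 1.39 and 1.49 with DMSO and at 0.78, 0.69 and 1.01 with DOS, a difference of −0.67 ± 0.13 without overlap.

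Genes of amino acid supply lay slightly lower with DOS in most members. Of 18 ATF4 targets, the programme of the amino acid and stress response, 17 lay below 0, with a median of −0.13. Of 20 cytosolic aminoacyl-tRNA synthetases, which load amino acids on tRNA, 18 lay below 0, with a median of −0.17. Of 16 folate and one-carbon enzymes, 12 lay below 0, with a median of −0.19. Single members were small and mostly short of an unadjusted p of 0.05, with 1 ATF4 target, 2 synthetases and 2 folate enzymes lower and 1 ATF4 target (Ddit4) higher, where 2.92% of all genes were lower. With the replicate block the numbers lower were 3, 4 and 9, where 5.69% of all genes were lower. Wars, the tryptophan synthetase, was at 6.00, 5.43, 5.45 and 5.47 with DMSO and at 5.0, 5.07 and 5.02 with DOS, a difference of −0.56 ± 0.15, with DMSO replicate 1 above the rest. Shmt2, the mitochondrial serine hydroxymethyltransferase, was at 5.60, 5.34, 5.49 and 5.57 with DMSO and at 5.19, 5.12 and 5.12 with DOS, a difference of −0.35 ± 0.10. Ddit4, an inhibitor of mTOR, was the ATF4 target above 0, with 0.25. On single arrays, set against the DMSO mean, the median of the ATF4 targets was 0.18, −0.14, −0.03 and −0.03 with DMSO and −0.08, −0.19 and −0.14 with DOS. That of the folate enzymes was 0.16, −0.27, −0.03 and 0.06 with DMSO and −0.15, −0.30 and −0.17 with DOS. The groups overlapped for both lists, with DMSO replicate 2 inside the DOS range. Without DMSO replicate 1 the medians were −0.05 for the ATF4 targets and −0.11 for the synthetases, and without DMSO replicate 2 that of the folate enzymes was −0.32.

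Proliferation genes lay close to 0 on their brightest probes. Of 45 DNA replication genes, 18 lay above 0, with a median of −0.03 and 0 at an unadjusted p below 0.05. Of 25 mitotic genes, 6 lay above 0, with a median of −0.07. On the brightest probes Aurkb was the one lower at an unadjusted p below 0.05. It was at −1.17, −0.76, −0.23 and −0.82 with DMSO and at −1.79, −1.88 and −1.34 with DOS. Mki67, Cdk1 and Top2a, which like Aurkb mark dividing cells, differed by 0.00, −0.07 and −0.31. Other probes lay further off for some genes, with −0.55 for the second probe of Cdk1 and 0.04 for that of Mki67. The 2 probes of Tpx2, a spindle protein, lay at −0.14 and −0.56, and the lower of their unadjusted p-values was 0.000985 in limma. Both medians turned positive without DMSO replicate 1, to 0.03 for the mitotic and 0.04 for the replication genes, and that of the replication genes was 0.06 without DOS replicate 3. Without DOS replicate 1 they were −0.16 and −0.13, and without DMSO replicate 2 −0.15 and −0.08. With the replicate block they were also −0.15, with 1 of the 25 mitotic genes above 0 and 4 lower at an unadjusted p below 0.05, and −0.08, and with the slide block −0.13 and −0.09. Of 76 tested ribosomal protein genes, 64 lay above 0, with a median of 0.06 and 0 at an unadjusted p below 0.05, and after quantile normalization the median was −0.01.

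Interferon-induced genes were divided. Of 29 tested, 11 lay above 0, with a median of −0.07. At an unadjusted p below 0.05, 5 (Ifit1, Oasl2, Rsad2, Ifi44 and Ifih1, 17.2%) were lower and 1 (3.45%) higher. Of all genes, 2.92% were lower and 3.44% higher. Ifit1, which binds viral RNA, was at 1.17, 1.07, 1.07 and 1.20 with DMSO and at 0.76, 0.44 and 0.85 with DOS, a difference of −0.44 ± 0.12. Ifih1, the RNA sensor MDA5, differed by −0.62 and Ifi44 by −0.74. Psmb8, an immunoproteasome subunit, was at −0.67, −0.01, −0.15 and −0.11 with DMSO and at 0.06, 0.43 and 0.16 with DOS. The difference was 0.45 ± 0.18, and Psmb9, another subunit of the complex, differed by 0.38. All but Rsad2 of these 6 genes had groups that did not overlap. Ifi27l2a, by its name also interferon-inducible and described above as higher on every DOS array, was not in this list. The median was −0.16 without DMSO replicate 1, the DMSO array on which the list was lowest, −0.10 without DOS replicate 3, −0.03 without DOS replicate 1 and −0.02 without DOS replicate 4.

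**Figure D4:**
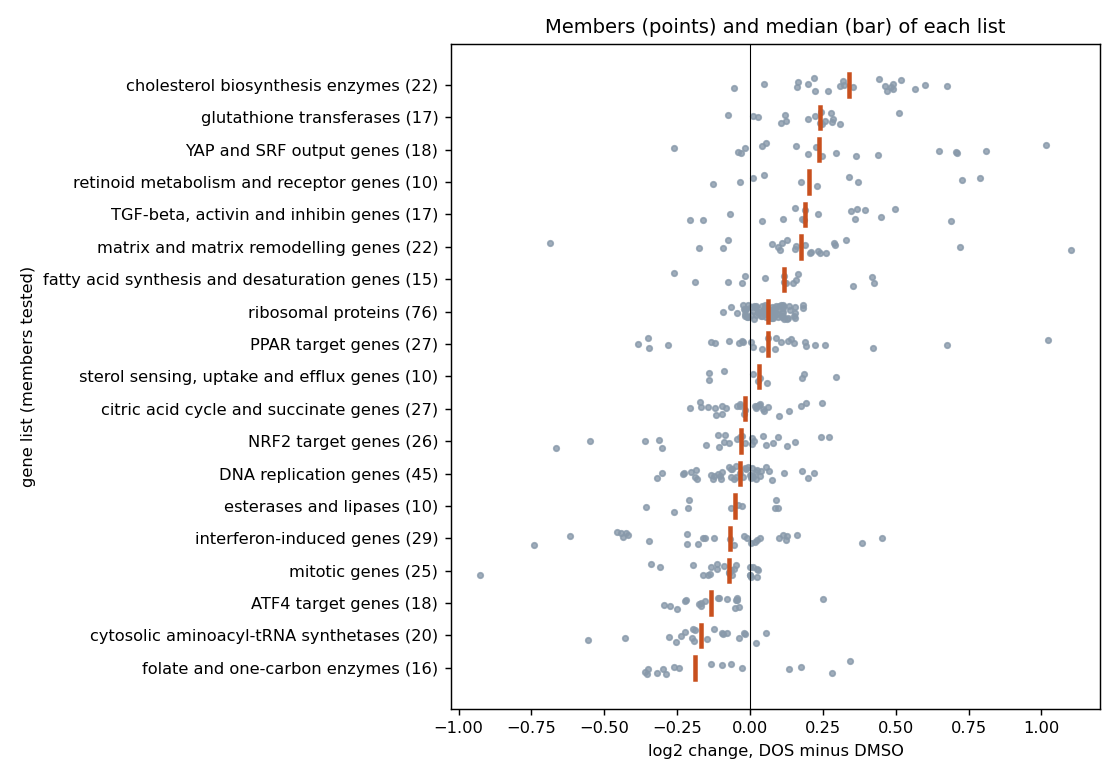
Log2 change (DOS minus DMSO) of each tested member (grey points) of 19 gene lists, ordered by their median (orange bar), with the number tested in brackets. The cholesterol synthesis enzymes have the highest median, 0.34, and the folate and one-carbon enzymes the lowest, −0.19, and the other list medians lie between these.

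The identity of the cells was checked against markers. Of 28 Sertoli cell markers, 12 were well above background on all 7 arrays, among them Sox9, Gata4, Dhh, Inhbb, Nr5a1, Dmrt1 and Vim, and 13 on none, among them Wt1, Amh, Fshr and Sox8. Of 13 tested, 8 lay above 0, with a median of 0.13 and 0 at an unadjusted p below 0.05. That median was 0.04 without DMSO replicate 2, 0.03 without DMSO replicate 4 and 0.03 without DOS replicate 1. The genes above background on all 7 arrays numbered 1 of 8 Leydig cell markers, 2 of 10 germ cell markers, 3 of 6 macrophage markers and 2 of 4 endothelial markers. They were Cyp17a1 of Leydig cells, Prm1 and Tnp1 of germ cells, Csf1r, Itgam and Cd14 of macrophages, and Pecam1 and Kdr of endothelium. Some were bright, with DMSO means of 3.68 for Cyp17a1, 4.17 for Kdr and 3.35 for Itgam, against −3.11 for Sox9. Above background on no array were Cyp11a1 and Lhcgr of Leydig cells, and Ddx4 and Dazl of germ cells. The same held for Ptprc and Adgre1 of macrophages and Cdh5 and Tek of endothelium. Genes also assayed by qPCR were at 0.24 (Gsta4), 0.52 (Mvd), 0.57 (Pmvk), 0.31 (Fdps), 0.25 (Mapk12), 0.23 (Mras) and 0.10 (Egfr), beside Pdk4 and Angptl4, and the reference gene Hprt at −0.08. With 1 array left out Gsta4 ranged from 0.10 to 0.31, Pmvk from 0.32 to 0.75, Mapk12 from 0.15 to 0.36 and Egfr from 0.02 to 0.20, lowest without DMSO replicate 1 for Gsta4, DMSO replicate 2 for Egfr and DOS replicate 1 for Pmvk and Mapk12. The other probe of Mras lay at −0.11. Of 26 further lists, the 21 with at least 5 tested genes had medians between −0.16 and 0.31. Of their 368 tested memberships, 11 were higher and 11 lower at an unadjusted p below 0.05, where 3.44% and 2.92% of all genes were. The highest median was that of the qPCR genes just named, and 6 of the 11 higher memberships were theirs. Some of these genes are also counted in the lists above.

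DOS was then compared with other compounds directly, at the same 100 μM and 48 hr, without the DMSO arrays. There were 3 such pairs, with p-values adjusted over the probes of each. Dioctyl maleate (DOM) is the closest relative, with the same octyl alcohol on an acid that has a double bond where succinic acid has a single one, and its arrays lay in the same rows of the slides as those of DOS and DMSO. The arrays of MEHP, which is mono(2-ethylhexyl) phthalate and forms in the body from a phthalate plasticizer, and of 1,4-butanediol dibenzoate (BDB), the other proposed replacement, lay in other rows, so that row and compound cannot be told apart in these pairs.

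Between DOM and DOS, limma called 1815 of 11935 genes, 853 higher and 962 lower with DOM, and with 1 probe a gene 6.04% of genes were higher and 7.49% lower. The call count lay between 1252 and 1884 with any single array left out. Hmox1 stood at 4.38 ± 0.09 (SD, n = 4) with DMSO, 4.27 ± 0.09 (n = 3) with DOS and 7.62 ± 0.28 (n = 4) with DOM, and the difference between DOM and DOS was 3.35 (adjusted p = 0.000121 in limma). Of 25 tested NRF2 targets 13 were called higher with DOM than with DOS and 0 lower. Of 45 DNA replication genes 31 were called lower with DOM, and of 25 mitotic genes 24. The contractile genes did not follow one order. Cnn1 (−2.02 log2 units, DOM minus DOS), Tagln (−0.89) and Actg2 (−0.81) were called lower with DOM in limma, whereas Myl9 was higher with DOM by 0.54 with an interval of 0.08 to 1.01 and no call.

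The cholesterol enzymes stood between vehicle and DOM. Their median difference from DMSO was 0.34 with DOS, 0.97 with DOM, 0.68 with MEHP and 0.00 with BDB, these being separate comparisons with the same DMSO arrays. Against DMSO, 19 of the 22 enzymes were called higher with DOM and 16 with MEHP, where 8.82% of all genes were called higher and 9.77% lower with DOM and 1.03% higher and 0.511% lower with MEHP. Directly, 10 of the 22 enzymes were called higher with DOM than with DOS, 0 of 22 were called between MEHP and DOS, with a median difference of 0.30, and 0 of 22 between BDB and DOS, with a median of −0.33 and all 22 lower with BDB. The enzymes lay higher with MEHP than with DOS in 20 of 22, where 50.6% of all genes lay higher with MEHP and 43.4% with BDB. Mvd was at 3.06 with DMSO, 3.57 with DOS, 3.03 with BDB, 4.33 with MEHP and 4.90 with DOM. The difference of 1.33 between DOM and DOS was called (adjusted p = 0.0026 in limma), and that of 0.75 between MEHP and DOS, with an interval of 0.39 to 1.12, was not. Tm7sf2 was at 3.41 with DOS and 3.35 with MEHP, a difference of −0.06 with an interval of −0.42 to 0.30, and at 4.78 with DOM.

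Between MEHP and DOS, 23 of 11879 genes were called, 13 higher and 10 lower with MEHP, which for 1 probe a gene is 0.109% higher and 0.0674% lower. With the replicate block the count was 44. Replicates 3 and 4 of DOS and MEHP deviated together at r = 0.138 and 0.166, below the 0.252 of a pair of unlike number. It was 4 without DOS replicate 1, 12 without DOS replicate 3 and 2 without DOS replicate 4, and 3, 3, 4 and 4 without MEHP replicate 1, 2, 3 or 4. Those higher with MEHP held PPAR targets, Pdk4 by 2.59, Angptl4 by 2.59, Acadl by 1.02 and Cpt1a by 0.84 log2 units, together with Aldh1a1 by 1.06 and Tgfb2 by 0.65. Those lower with MEHP held Dhrs3 (−2.09), Ltbp2 (−1.18), Acta2 (−1.13) and Actg2 (−0.91). Pdk4 was thus at −1.44 ± 0.10 (SD, n = 4) with DMSO, −0.42 ± 0.20 (n = 3) with DOS and 2.17 ± 0.04 (n = 4) with MEHP. The difference of Saa3, −0.51 with an interval of −1.17 to 0.15, and that of Car6, −0.03 with an interval of −0.88 to 0.83, were not called.

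Between BDB and DOS, 5 of 11929 genes were called, 2 higher and 3 lower with BDB, which for 1 probe a gene is 0.0168% and 0.0252%. Pdk4 (−1.27, BDB minus DOS), Hnrnph3 (−1.30) and Ltbp2 (−0.93) were lower with BDB, and Tepp and H3c11 were higher by 1.06 and 0.83 log2 units, each with an adjusted p of 0.0453 in limma. This count was unstable. With the replicate block it was 0. It was 0 without DOS replicate 1 or 4 or BDB replicate 1, 2 or 4, 2 without BDB replicate 3 and 11 without DOS replicate 3. Aldh1a1 was lower with BDB, at −0.67, with an interval of −0.92 to −0.43 and no call. Acta2, Tagln and Actg2 were lower with BDB, at −0.61, −0.45 and −0.49, none of them called, with intervals that did not reach 0. Saa3 and Car6 were higher with BDB than with DOS by 0.80 and 1.25, the first with an interval that spanned 0.

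**Figure D5:**
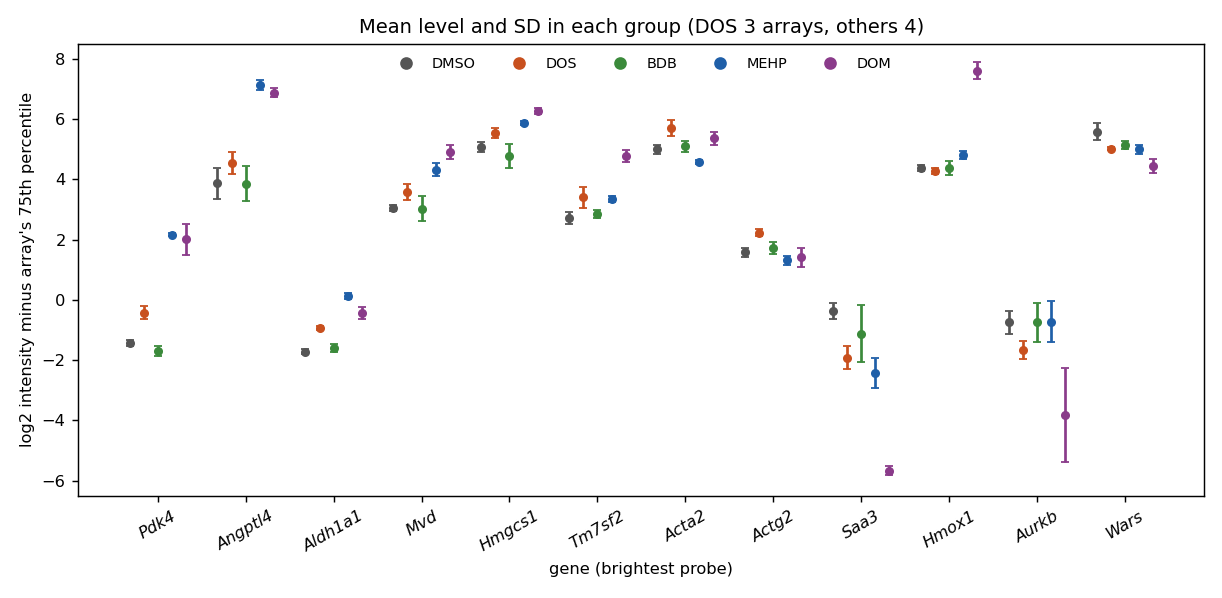
Mean level and SD of 12 genes with DMSO, DOS, BDB, MEHP and DOM (3 arrays for DOS and 4 for each other group), as log2 intensity minus the 75th percentile of the array. Pdk4 with DOS, at −0.42, lies between DMSO or BDB and MEHP or DOM, Mvd and Hmgcs1 follow a similar order, Acta2 and Actg2 are highest with DOS, and Saa3 was above background on no DOM array.

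On the arrays themselves, the 75th percentile of the intensity was 234.1 to 320.4 for DMSO and 218.1 to 256.4 for DOS, no spot was saturated, and arrays have no read depth, so that their number limits the precision. Any 2 arrays correlated at 0.987 to 0.996 within DMSO, 0.992 to 0.996 within DOS and 0.985 to 0.995 between the groups over the tested probes. Slide 1 held DMSO replicate 1 and DOS replicate 1, slide 2 held DMSO replicates 2 and 3, and slide 3 held DMSO replicate 4 and DOS replicates 3 and 4. With the slide as a block 0 genes were called, with 3276 probes at an unadjusted p below 0.05. The spike-in controls of DMSO replicate 4 and DOS replicate 3 were out of the range of the extraction software, and without both arrays 8 genes were called and the median of the cholesterol enzymes was 0.39.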

How the data were processed

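RNA was hybridized to 1-colour (Cy3) Agilent SurePrint G3 mouse arrays (62976 spots each). The authors deposited the scanner output of Feature Extraction, in which the processed signal is a background-subtracted linear intensity per spot, and a table of values on the log2 scale, shifted to the 75th percentile of each array and set relative to the median of each probe over all arrays. The scanner intensities were used here. Control spots and outlier spots were left out, signals under 1 were set to 1, log2 was taken, the 75th percentile of the array was subtracted, and spots of a probe were averaged. Of 55681 probes, 26582 had a gene name (20145 genes). Each gene took the value of the probe that was brightest over the 7 arrays.

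Groups were taken from the sample labels. DOS and DMSO were compared with limma 3.58.1 in R 4.3.3 (with the data.table package, 1.17.8), with only these 2 groups in the fit and Benjamini-Hochberg adjustment over the probes tested. A call needed an adjusted p below 0.05 and a change above 1.5-fold. DOS was set against each other compound in the same way. Genes named are the 10 furthest in each direction among those well above background on all 7 arrays, with an unadjusted p below 0.05 and groups that did not overlap, the 10 with the lowest p, genes above background in 1 group, the qPCR genes, and list members at an unadjusted p below 0.05 or that define a list. The members and the 47 lists were chosen with earlier results of these data known. Arrays with the same replicate number deviated together from their group means, with r = 0.446, 0.22 and 0.223 for replicates 1, 3 and 4. Other pairs gave at most 0.0938 when DMSO replicate 2, which has no partner, was left out. With it, DMSO replicate 2 and DOS replicate 3 gave 0.137, and the same-number pairs 0.452, 0.199 and 0.201. On this basis, found from the values and not stated in the labels, the numbers were taken as pairs for the replicate block alone. The fit reported had no block, so its p-values, intervals and calls are unpaired. Between DOS and MEHP or DOM, only replicate 1 deviated together more than every pair of unlike number. Alternatives were other scalings, background corrections, filters, blocks, fits and sources of values, and each array left out. The fit was tested on simulated data. Promoters came from RefSeq and were searched in Python 3.11.15, and figures were drawn with matplotlib 3.10.9. Some list members counted in the totals are not reported here by name.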

Additional observations from a re-analysis of the deposited data

Results flagged for a closer look

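Among the 4 DMSO arrays, 1 array stood apart from the other 3 for 10 of 97 genes and 2 of 21 lists, by a gap that exceeded Dixon's 95% value, which chance gives in about 1 in 20 groups. DMSO replicate 1 was the array in 7 of the 10 genes and in 1 of the lists. On it Cd274 was at −3.14 (others −3.80 to −3.74), Cxadr at 2.59 (2.00 to 2.09), Elovl6 at 2.60 (2.15 to 2.18) and Fzd4 at −4.19 (−3.63 to −3.53). Hprt was at 5.62 on the same array (others 5.32 to 5.36), Mgp at −0.70 (0.42 to 0.49) and Wars at 6.00 (5.43 to 5.47). On DMSO replicate 4, Oasl2 was at 0.60 (others 0.12 to 0.15) and Sqstm1, an autophagy receptor, at 4.85 (4.45 on each). On DMSO replicate 2, Oxt was at −3.27 (others −3.76 to −3.72). The median of the interferon-induced genes, each set against its DMSO mean, was −0.16 on DMSO replicate 1 (others 0.06 to 0.08), and that of the esterases and lipases was −0.063 on DMSO replicate 3 (others 0.0036 to 0.016).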

How the results depend on the processing

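Over 13 alternatives on the full set of arrays and 7 with 1 array left out, to which the fit without both arrays out of spike-in range was added after seeing the data, list medians moved by no more than the spread between arrays in 412 cases and further in 29, and single named genes kept direction and call in 2020 cases, while 5 changed sign and 4 passed the thresholds (Car6 and Saa3 with normexp, Pdk4 and Oxt without DOS replicate 3). Several alternatives, namely the filters, the brightest probe, a variance trend and all groups in 1 fit, cannot move the estimate of a gene. The cases counted as unmoved are therefore not all separate checks. The number of genes called between DOS and DMSO was 0 in the fit reported, 2 with normexp and 8 without both spike-in arrays. It was 0 to 8 with 1 array left out. Probes at an unadjusted p below 0.05 numbered 3276 with the slide block and 3314 with the replicate block. The replicate block moved the median of the fatty acid genes to 0.073, of the Sertoli cell markers to 0.037 and of the sterol sensing genes to 0.056, and it changed no call between DOS and DMSO. Normexp gave 0.076 for the fatty acid genes and 0.063 for the Sertoli markers, and the slide block 0.051 for the fatty acid genes and −0.26 for the tRNA synthetases. Without the filter the medians were 0.027 for the Sertoli markers, 0.13 for the retinoid genes, 0.034 for the esterases, 0.13 for the glutathione transferases and 0.38 for the myoid markers, and with detection on at least 1 array 0.022 for the Sertoli markers and 0.29 for the retinoid genes. Without both spike-in arrays they were 0.058 for the Sertoli markers, 0.15 for the retinoid genes and 0.0034 for the NRF2 targets.

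With 1 array left out the medians ranged from −0.045 to 0.0082 for the NRF2 targets, 0.027 to 0.18 for the Sertoli markers, 0.19 to 0.31 for the YAP and SRF genes, −0.091 to −0.022 for the esterases, 0.028 to 0.13 for the fatty acid genes, 0.14 to 0.25 for the glutathione transferases, 0.12 to 0.22 for the retinoid genes and 0.019 to 0.056 for the sterol sensing genes. Between DOM and DOS 401 genes were called without the filter. Between MEHP and DOS the count was 35 with normexp, 2 without the filter, 3 with detection on at least 1 array, 4 with the slide block, 44 with the replicate block, 44 with a variance trend and 2 to 12 with 1 array left out. Between BDB and DOS it was 0 with quantile or median scaling, no filter, detection on at least 1 array, the slide block, the replicate block and the authors' value table, 3 with detection in both groups, 8 with the brightest probe of each gene, 76 with normexp, 95 with a variance trend, 136 with all groups in 1 fit and 0 to 11 with 1 array left out.

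With normexp the differences of Gm12359 and Kcnn3 were 0.017 and 0.027, of opposite sign. Egfr was at −0.0066 and Hprt at 0.000931 without both spike-in arrays, and Hprt ranged from −0.18 to 0.029 with 1 array left out, the highest without DOS replicate 3. The causes were not tested. Signals near background limit the dim genes, and 3 against 4 arrays limit all intervals.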

Other observations

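Of the 8 named genes called without DOS replicate 3, 5 (Sulf2, Hormad1, Olfr510, Ifnab and Gria1) were bright on DOS replicates 1 and 4 alone and near the floor on DOS replicate 3 and all DMSO arrays. Sulf2, a heparan sulfate sulfatase, was at −6.55, −6.29, −6.49 and −6.10 with DMSO and at −2.04, −6.37 and −2.35 with DOS replicates 1, 3 and 4. Olfr510, an olfactory receptor, was at −6.58, −6.27, −6.34 and −6.18 with DMSO and at −2.06, −6.69 and −2.88 with DOS. The other 3 called were Pdk4, which lay higher with DOS, and Oxt and AI854703, which lay lower. What set DOS replicate 3 apart was not tested.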
